A study of Mus musculus with 2 samples.

Results

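Genes of the interferon gamma response were examined in single cells from the alveolar bone of mice, which anchors the teeth. The 10 genes were the guanylate-binding proteins Gbp2, Gbp3, Gbp5 and Gbp7, the immunity-related GTPases Igtp, Irgm1, Irgm2 and Iigp1, and the receptor chains Ifngr1 and Ifngr2. They were found by their symbols among the 56893 gene symbols of the files. The list was chosen with earlier results of these data known, so shares of all genes set beside it are a description. All 10 were measured, which here means at least 20 unique molecular identifiers (UMIs, each standing for 1 captured transcript) in some cell class of each library.

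The study concerned orthodontic tooth movement in healthy C57BL/6J mice aged 6 to 8 weeks. Of 12 mice, one group had the right maxillary first molar pulled by a nickel-titanium coil spring at a constant 25 g, and a control group carried the attached spring without force. On day 7 the molar was extracted, bone within 1 mm of the socket was collected, and the bone of 6 mice was pooled for each group. No source used here says which of the 2 libraries came from which group, so no comparison of force with control was possible, and the text speaks of library 1 and library 2. All mice carried a spring and all gave bone from a fresh extraction site. Each library is 1 pool without replicates, so no test was made, and every interval is a 95% limit for counting error alone.

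Interferon gamma is secreted mainly by NK and T cells. It binds a receptor built of the ligand-binding chain IFNGR1 and the chain IFNGR2, which is needed for the signal. The kinases JAK1 and JAK2 then pass the signal on to the nucleus, where gamma-activated sites in promoters are bound and IRF1 and other genes are induced. Guanylate-binding proteins and immunity-related GTPases are among the most strongly induced genes in mouse cells. They bind GTP, gather on the membranes of vacuoles that hold bacteria or parasites, and help to break these open or to recruit autophagy proteins. Irgm1, Irgm2 and Igtp encode the IRGM group, which guards the cell's own membranes, and Iigp1 encodes an effector that is loaded onto vacuoles. Type I interferons act through another receptor and a complex that holds STAT2 and IRF9 and binds interferon-stimulated response elements, and they induce an overlapping set of genes.

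After filtering there were 9412 cells in library 1 (median 3240.5 UMIs per cell) and 11722 in library 2 (median 4419). In all, 70 cell barcodes occurred in both libraries. The cells fell into 25 classes, of which 20 were named from marker genes and 5 are called by their leading genes. Such a name states a likeness in markers and no more. Bone cells were found, with 801 and 626 osteoblast-like cells and 50 and 27 osteoclast-like cells. Here 16 classes are called blood classes, which covers blood, marrow and osteoclast-like cells, and 9 are called tissue classes, which covers stromal, bone-forming, vascular and Schwann-like cells. That division was made after the values had been seen. Levels are given as CPM, the UMIs of a gene per 1000000 UMIs of the same class and library.

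The promoters of the GTPase genes are shown first because they share sequence features. The genes were chosen as interferon-induced, so interferon motifs in their promoters are no independent observation. RefSeq promoter windows of the GRCm38.p6 build were available for 9 of the 10 genes. The 250 bases before each start were searched on both strands for GAAA, any 2 bases and again GAAA, the core of the interferon-stimulated response element, and for TTCNNNGAA, the gamma-activated site. The first motif was found in all 7 GTPase genes that had a window, the 4 Gbp genes and 3 immunity-related GTPase genes, and in neither receptor gene. Gbp3 has more than 1 start, and only 1 of its windows held the motif. The same motif occurs in 3.46% of all 27025 genes with such windows, and in 2.98% of all 32851 windows. The gamma-activated motif was found in Gbp5, Gbp7, Igtp and Irgm2, which is 4 of 9 genes, against 8.13% of all genes and 7.02% of all windows. The sequences below run 5′ to 3′ toward the start of the gene, with both motifs in capitals. A match shows only that the letters are present. The stretches around the motifs of Igtp and Irgm2 are nearly the same, so these genes are not separate cases.
Gbp2, chr3:142620584-142620633, plus strand: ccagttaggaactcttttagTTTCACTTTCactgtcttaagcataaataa
Gbp5, chr3:142496684-142496910, plus strand: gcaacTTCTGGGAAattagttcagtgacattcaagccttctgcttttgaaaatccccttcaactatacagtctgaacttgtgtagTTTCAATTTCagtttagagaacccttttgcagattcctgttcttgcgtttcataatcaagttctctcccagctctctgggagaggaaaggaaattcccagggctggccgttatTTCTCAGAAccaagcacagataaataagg
Gbp7, chr3:142530210-142530312, plus strand: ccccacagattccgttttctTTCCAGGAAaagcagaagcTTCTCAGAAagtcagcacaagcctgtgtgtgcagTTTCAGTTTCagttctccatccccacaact
Igtp, chr11:58199491-58199551, plus strand: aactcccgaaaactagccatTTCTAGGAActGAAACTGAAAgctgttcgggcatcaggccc
Irgm1, chr11:48871421-48871470, minus strand: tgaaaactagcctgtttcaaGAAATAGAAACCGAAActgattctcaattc

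In Gbp2 the response-element motif lay 59 bases before the start, and in Irgm1 a pair of overlapping copies lay 30 and 24 bases before it. Igtp held both kinds of motif side by side, 45 and 34 bases before its start. Gbp5 held a gamma-activated motif at 245 and at 52 bases, on either side of a response element at 165 bases. Gbp7 held gamma-activated motifs at 106 and 87 bases and a response element at 53 bases.

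UMIs of the GTPase genes were found in every cell class. Summed over the 8 GTPase genes, the level was highest in both libraries in a small stromal cluster led by Prss23, C4b and Rasl11a, with 2822 CPM (interval 2680 to 2969) in library 1 and 3123 CPM (3007 to 3243) in library 2. Its lead over the next class, 0.20 on the log2 scale in the library with the smaller lead, turned to -0.17 when only cells with at least 2000 UMIs were kept. The level was lowest in osteoclast-like cells, with 140.4 CPM and 42.9 CPM. After the Prss23 cluster came plasmacytoid dendritic cell-like cells in library 1, at 2457 CPM, and endothelial-like cells in library 2, at 2401 CPM. With all filtered cells kept, the libraries thus shared the top and the bottom of the order, and differed in the classes between.

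**Figure D1:**
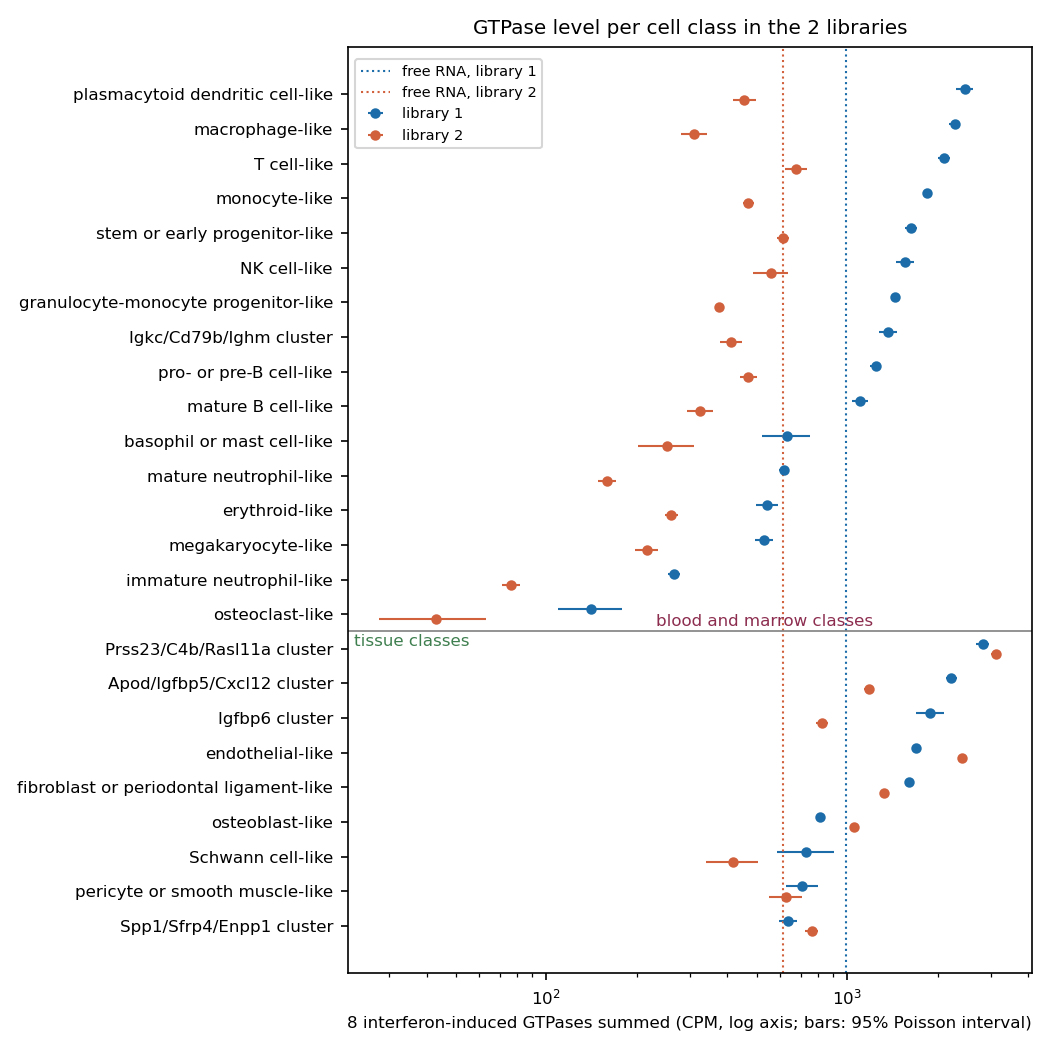
Summed level of the 8 GTPase genes in each cell class, in CPM on a log axis. Points are the 2 libraries, bars are exact 95% Poisson intervals, and dotted lines mark the level in free RNA. In the blood classes every library 2 point lies to the left of its library 1 point, while the tissue classes show both orders.

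RNA outside cells also held these transcripts, since barcodes with fewer than 100 UMIs contained the 8 GTPase genes at 994 CPM in library 1 and 613 CPM in library 2. The interval lay above that level in 15 of 25 classes in library 1 and in 8 of 25 in library 2. A class below that level, such as immature neutrophil-like cells with 265 and 76.3 CPM, had fewer of these transcripts per UMI than the free RNA around it.

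The highest class of a single gene mostly changed from one library to the other. It was the same for 1 of the 10, Ifngr1, and for 52.9% of all 13843 measured genes. A level at least 2-fold above all other classes, in library 1 and in library 2, was reached by 0 of the 10 and by 10.7% of measured genes. Over the 25 classes the Pearson correlation of log2 levels between the libraries ran from 0.43 for Irgm2 to 0.91 for Ifngr2. This correlation is a description over classes that share a library.

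**Figure D2:**
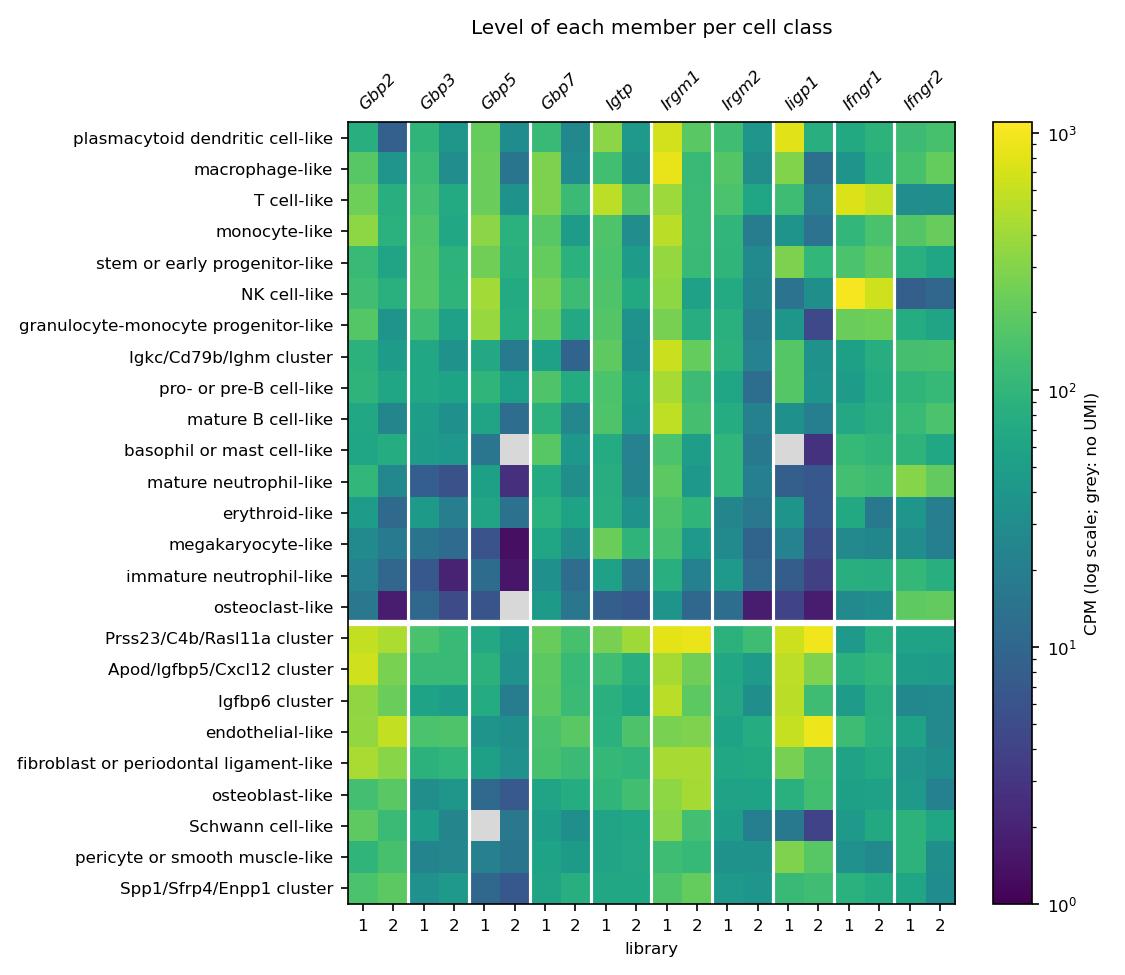
Level of each of the 10 genes in each cell class and library, in CPM on a log colour scale. Blood classes stand above the white line and tissue classes below it, and grey means no UMI. Within each GTPase gene the library 2 column is darker than the library 1 column in most blood rows, which is not seen for Ifngr1 and Ifngr2.

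Gbp2 encodes a guanylate-binding protein that gathers on pathogen vacuoles. Its leading classes were stromal and vascular in both libraries. In library 1 it was highest in the Apod/Igfbp5/Cxcl12 cluster at 669 CPM, followed by the Prss23 cluster at 572 CPM. In library 2 it was highest in endothelial-like cells at 574 CPM, followed by the Prss23 cluster at 459 CPM. Its median over the tissue classes was 346 and 227 CPM, and over the blood classes 93.2 and 38.3 CPM. Tissue medians were thus above blood medians in both libraries, but single classes crossed, with monocyte-like cells at 338 CPM and pericyte or smooth muscle-like cells at 97.3 CPM in library 1.

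Gbp5 encodes a guanylate-binding protein tied to inflammasome activation, and its leading classes were blood classes in both libraries. In library 1 it was highest in NK cell-like cells at 417 CPM (interval 361 to 479), granulocyte-monocyte progenitor-like cells at 376 CPM and monocyte-like cells at 329 CPM. In library 2 monocyte-like cells led at 87.5 CPM (79.3 to 96.4), with stem or early progenitor-like cells at 81.2 CPM and granulocyte-monocyte progenitor-like cells at 76.2 CPM. The lead was within counting error in both libraries. The median over the blood classes was 83.5 and 16.8 CPM and over the tissue classes 37.1 and 19.1 CPM, so blood stood above tissue in library 1 only. No UMI of Gbp5 was seen in Schwann cell-like cells of library 1, which allows up to 25.5 CPM. None was seen in basophil or mast cell-like and osteoclast-like cells of library 2, which allows up to 8.39 and 5.14 CPM.

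Gbp3 and Gbp7, further members of the same family, were spread more evenly. Gbp3 ran from 6.97 CPM in immature neutrophil-like cells to 175 CPM in NK cell-like cells of library 1, and from 2.01 CPM to 162 CPM, in endothelial-like cells, in library 2. Gbp7 was highest at 279 CPM in macrophage-like cells of library 1, with T cell-like cells at 276 CPM, and at 183 CPM in endothelial-like cells of library 2. In library 1 the leads of Gbp3 and Gbp7 over the next class were within counting error.

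For all 4 immunity-related GTPases the highest class was a blood class in library 1 and the stromal Prss23 cluster in library 2. For Iigp1 the lead of that cluster over endothelial-like cells in library 2 was within counting error. Irgm1, a regulator of the family and of autophagy, was highest in macrophage-like cells of library 1 at 880.2 CPM, within counting error of the Prss23 cluster at 822 CPM. In library 2 the Prss23 cluster held 905 CPM and fibroblast or periodontal ligament-like cells came next with 438 CPM, while macrophage-like cells held 115 CPM. Irgm2, its close relative, was highest in macrophage-like cells of library 1 at 169 CPM, within counting error of T cell-like cells at 151 CPM, and in the Prss23 cluster of library 2 at 124 CPM. The Prss23 cluster itself held like levels of Irgm1 in both libraries, so the change of order came with lower values in macrophage-like cells.

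Igtp, which encodes IRGM3, was highest in T cell-like cells of library 1 at 549 CPM, 1.70 times the next class. In library 2 those cells held 165 CPM, and the Prss23 cluster led with 402 CPM. Iigp1 encodes an effector that helps to disrupt vacuoles. It was highest in plasmacytoid dendritic cell-like cells of library 1 at 809.96 CPM, against 79.6 CPM in library 2. Its tissue sites were shared, since the Prss23 cluster held 644 and 939 CPM and endothelial-like cells held 594 and 930.1 CPM. Neutrophil-like cells held little of it, with 8.24 and 6.73 CPM in the mature class.

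The receptor chains differed in place. Ifngr1 was highest in NK cell-like cells, with 1003 CPM (interval 915 to 1097) in library 1 and 668 CPM (590.1 to 753) in library 2, and T cell-like cells came next with 755 and 596 CPM. The lead over T cell-like cells was 1.33-fold in library 1 (1.18 to 1.49) and 1.12-fold in library 2 (0.97 to 1.30), so the order of these classes was within counting error in library 2. Granulocyte-monocyte progenitor-like cells followed with 229 and 236 CPM. The median class held 69.5 and 80.4 CPM. B-lymphoid classes lay near it, with 67.6 and 83.4 CPM in mature B cell-like cells, so among lymphoid classes only NK cell-like and T cell-like cells stood high.

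Ifngr2 was lowest in the class where Ifngr1 was highest. NK cell-like cells held 4 UMIs of Ifngr2 in each library, 8.34 CPM (interval 2.27 to 21.4) and 10.04 CPM (2.74 to 25.7), and T cell-like cells held 31.1 and 32.8 CPM. It was highest in mature neutrophil-like cells of library 1 at 308 CPM and in monocyte-like cells of library 2 at 214 CPM. In library 2 macrophage-like cells with 211 CPM and osteoclast-like cells with 206 CPM lay within counting error of the monocyte-like cells. Not all myeloid classes were high, since granulocyte-monocyte progenitor-like cells held 76.9 and 60.1 CPM and mature B cell-like cells more, at 113 and 153 CPM. Osteoclast-like cells, which held the least of the summed GTPases, had 194 and 206 CPM of Ifngr2.

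Cells with at least 1000 UMIs were thinned to that number, and the share expected to keep a UMI was computed. Each interval is that of the expected number of cells, rounded to a whole cell. For Ifngr1 the share was 52.4% of NK cell-like cells in library 1 (exact interval 44.1 to 60.3) and 40.7% in library 2 (31.0 to 51.2). For erythroid-like cells the share was 3.53% (1.25 to 7.23) and 0.967% (0.463 to 1.91). Before thinning, 75.3% and 67.7% of NK cell-like cells had one. Of mature neutrophil-like cells, thinned in the same way, 25.6% (23.7 to 27.5) of library 1 and 18.9% (16.9 to 21.02) of library 2 had a UMI of Ifngr2. For NK cell-like cells the expected share was 0.842% (0.0163 to 3.54) and 0.961% (0.0258 to 5.55). The erythroid-like share of Ifngr2 was 2.87% and 1.88%, so the share in NK cell-like cells lay below it in both libraries. Whether the few UMIs of Ifngr2 in NK cell-like cells came from those cells was not tested. The median depth before thinning was 2633.5 and 3159 UMIs in NK cell-like cells, 2058 and 2937 in mature neutrophil-like cells, and 2435 and 4902 in erythroid-like cells.

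**Figure D3:**
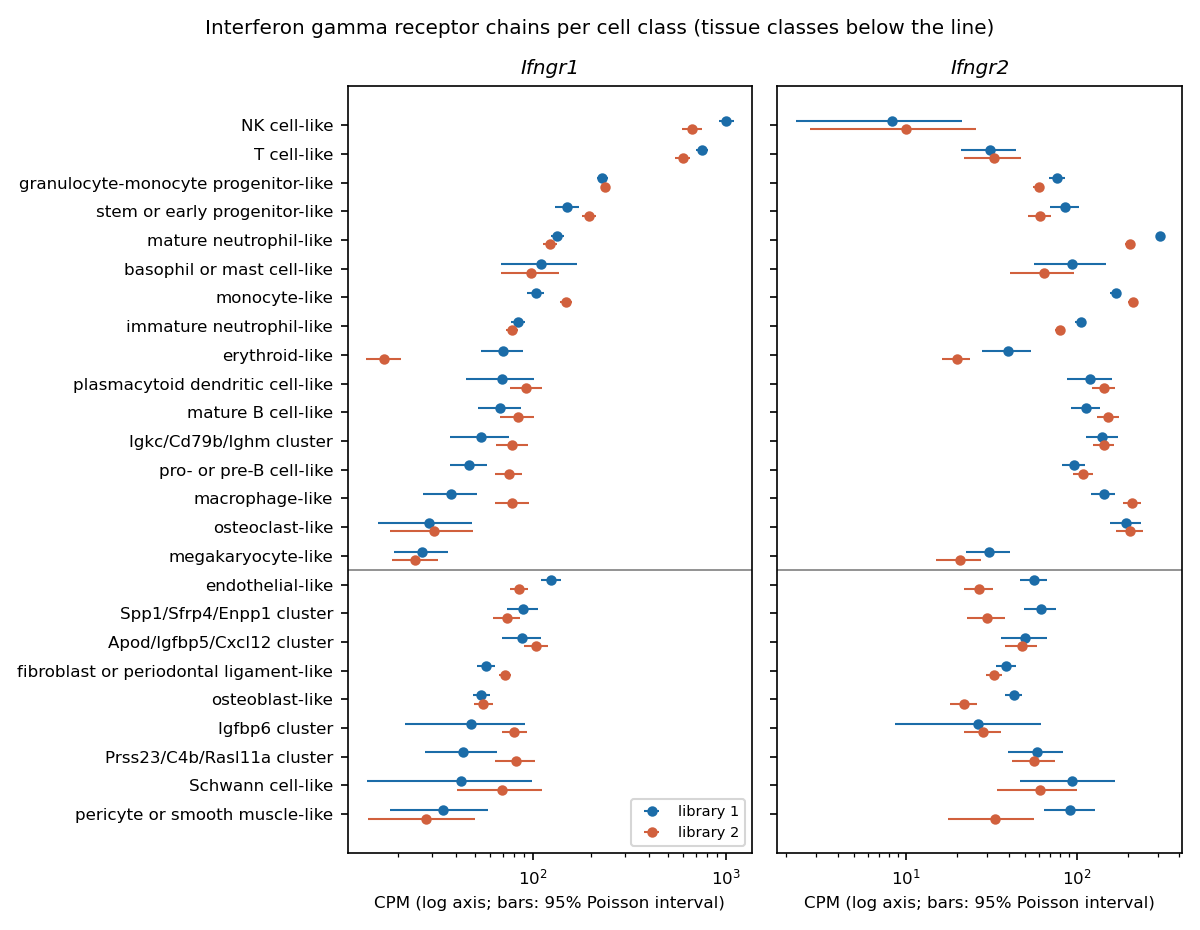
Levels of Ifngr1 (left) and Ifngr2 (right) per cell class, in CPM on log axes, with exact 95% Poisson intervals for each library. Classes are in the order of Ifngr1 in library 1, blood above the line. NK cell-like and T cell-like cells lead for Ifngr1. For Ifngr2 NK cell-like cells are lowest in both libraries, and T cell-like cells lie below the median class.

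The GTPase genes were lower in the blood cells of library 2. The summed GTPase level was at least 2-fold lower in library 2 in 16 of 16 blood classes and in 1 of 9 tissue classes. The ratio of library 2 to library 1 had intervals crossing 2-fold in erythroid-like (0.435 to 0.532) and basophil or mast cell-like cells (0.304 to 0.525). Among all genes, the share at least 2-fold lower in library 2 had a median of 6.03% over the blood classes (4.0% to 38.5%) and of 5.66% over the tissue classes (4.7% to 11.5%). Since neither library has a group label, this describes these 2 pools and no treatment.

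Macrophage-like cells differed most, with 2277 CPM in library 1 and 309.6 CPM in library 2, a ratio of 0.136 (interval 0.122 to 0.151). Plasmacytoid dendritic cell-like cells had a ratio of 0.185, monocyte-like cells 0.256, mature neutrophil-like cells 0.259 and granulocyte-monocyte progenitor-like cells 0.259. T cell-like cells went from 2097 to 677 CPM and NK cell-like cells from 1558 to 557 CPM. The ratio nearest to 1 among the blood classes was 0.481 in erythroid-like cells. There the median ratio of all genes was 0.569, so relative to all genes of that class the GTPases stood at 0.846. Relative to the median of all genes, 15 of 16 blood classes were at least 2-fold lower.

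Tissue classes went in both directions. Endothelial-like cells had 1697 CPM in library 1 and 2401 CPM in library 2, a ratio of 1.42 (interval 1.36 to 1.47), and osteoblast-like cells had 809.7 and 1055 CPM, a ratio of 1.30. The Prss23 cluster stood at 1.11 and the Spp1/Sfrp4/Enpp1 cluster at 1.20. Fibroblast or periodontal ligament-like cells stood at 0.821, Schwann cell-like cells at 0.570 and the Apod/Igfbp5/Cxcl12 cluster at 0.532. The 1 tissue class past 2-fold was a cluster led by Igfbp6 at 0.437, which had 29 cells in library 1 and 318 in library 2.

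Among pairs of a GTPase gene and a blood class with at least 20 UMIs in the libraries together, 96 of 119 pairs (80.7%) were at least 2-fold lower in library 2. For all genes the share of such pairs was 8.56%. In tissue classes 7 of 65 GTPase pairs (10.8%) were at least 2-fold lower, where all genes gave 6.55%. The GTPase genes were therefore far from the background in blood classes and near it in tissue classes.

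Taking for each gene the median ratio over its blood classes, 7 of the 8 GTPase genes were at least 2-fold lower in library 2, where 1.65% of the 8109 genes with enough classes were. Gbp5 had the lowest median, 0.203, which ranked 13 of 8109, followed by Iigp1 at 0.230, Irgm2 at 0.246, Irgm1 at 0.278 and Igtp at 0.301. Gbp7 stood at 0.354 and Gbp2 at 0.385. Gbp3, at 0.539, was the GTPase gene that did not pass 2-fold. Igtp was at least 2-fold lower in all 15 blood classes in which it was measured, which held for 0.0987% of the genes, 8 in number.

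Both receptor chains stood close to all genes by this median. Ifngr1 had a blood median of 1.05 and Ifngr2 of 1.02, against 0.968 for all genes. Single classes went further, with Ifngr1 at 0.243 in erythroid-like and 2.08 in macrophage-like cells. Over the tissue classes none of the 10 genes had a median at least 2-fold lower, where 1.36% of genes did. The GTPase genes ran there from 0.634 for Gbp5 to 1.10 for Igtp, with Irgm1 at 1.00 and Irgm2 at 1.01. Ifngr2 stood at 0.655 in tissue classes, being lower in library 2 in 8 of 9 of them and at least 2-fold lower in 3.

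**Figure D4:**
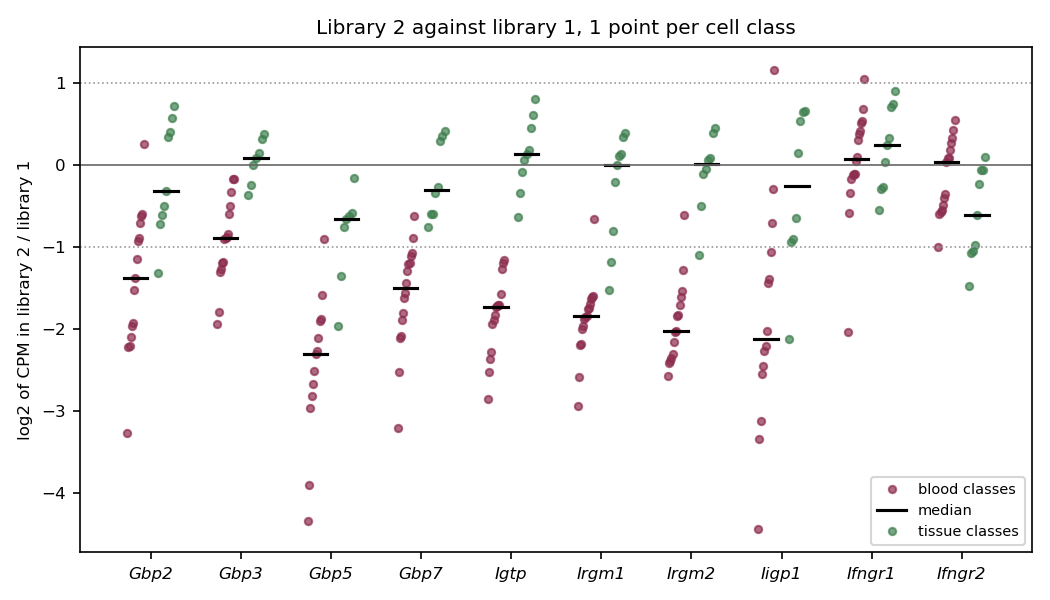
Ratio of CPM in library 2 to library 1 for each of the 10 genes, on a log2 axis, with 1 point per cell class that had at least 20 UMIs. Black bars are medians over classes and dotted lines mark 2-fold. For the GTPase genes except Gbp3 the blood points lie mostly below the lower dotted line. For Gbp3 6 of 15 blood points do. The tissue points of the GTPase genes lie around 0, except for Gbp5, where all lie below 0. Both kinds of point lie around 0 for Ifngr1.

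The lower level also showed in the share of cells with a transcript. This share is computed from the same UMIs as the levels, so it is no separate observation. In cells thinned to 1000 UMIs, the expected share with any GTPase UMI was lower in library 2 in 16 of 16 blood classes, with medians of 47.7% and 23.7%. In tissue classes it was lower in 3 of 9, with medians of 54.1% and 43.4%. T cell-like cells had shares of 69.7% (exact interval 63.9 to 75.1) and 39.0% (32.4 to 46.1), and macrophage-like cells 61.9% (52.8 to 70.4) and 24.0% (17.9 to 30.7). Endothelial-like cells had 57.9% (52.0 to 63.6) and 71.4% (67.5 to 74.9). In erythroid-like cells the shares were 28.6% and 18.6%.

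Several features of the libraries moved with this result. Free RNA held the 8 GTPase genes at a ratio of like direction, 994 against 613 CPM, and an estimate of it, made from haemoglobin genes, was subtracted. The estimate is void in macrophage-like, osteoclast-like and Schwann cell-like cells, where it passed 50% or left no GTPase UMI in a library. In the other classes the sum after subtraction was at least 2-fold lower in 14 of 14 blood classes and in 1 of 8 tissue classes. Cells of library 2 were deeper, with a median of 4419 against 3240.5 UMIs, and their median mitochondrial share was 1.82% against 1.44%. Among cells with at least 2000 UMIs the sum was at least 2-fold lower in 13 of 16 blood classes, and among cells with at most 10% mitochondrial UMIs in 15 of 16. The makeup of some classes differed as well. The mature neutrophil-like class was made of an Asprv1/Il1b/Hcar2 cluster with 1478 and 546 cells and of an Mmp8/Retnlg/Fpr1 cluster with 747 and 874 cells. Within these clusters the ratios were 0.311 and 0.344, so the difference was present in each. By single clusters 17 of 19 blood clusters were at least 2-fold lower, the exceptions being both erythroid-like clusters at 0.567.

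Among other interferon-inducible GTPases, those with enough data were also lower in blood classes of library 2. Of 13 genes, 10 were measured and 3 had enough classes for both medians, and all 3 were at least 2-fold lower over the blood classes. Ifi47 had a blood median of 0.311 and a tissue median of 0.781, Tgtp2 0.276 and 1.12, and Gm12250 0.202 and 1.02. Gbp4, measured in 10 blood classes and 2 tissue classes, was at least 2-fold lower in 8 of the 10. Others with too few classes for both medians varied. Tgtp1 was at least 2-fold lower in 8 of 9 blood classes and Gbp6 in 5 of 7. Gbp9 was so in 6 of 12, Gvin1 in 3 of 9 and Gbp8 in 1 of 6. In library 1 Ifi47 and Tgtp2 were highest in plasmacytoid dendritic cell-like cells, at 489 and 366 CPM.

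Most UMIs of Ifng, the ligand, lay in NK cell-like and T cell-like cells. NK cell-like cells held 300.3 and 291 CPM, and T cell-like cells 121 and 55.1 CPM. These were also the cells with most Ifngr1. NK cell-like cells numbered 158 and 99 and T cell-like cells 282 and 208, so the pool of library 2 had fewer of both.

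Kinases and factors of the pathway mostly had median ratios nearer to 1 than the GTPase genes, but lower than all genes. Of 10 genes with both medians, 2 were at least 2-fold lower over the blood classes, where 1.65% of all genes were. All 10 blood medians were below 1, as were 4832 of 8109 over all genes. The median of the 10 was 0.729, against 0.968 for all genes. The 2 were Irf1, a transcription factor induced by interferon gamma, at 0.462, and Socs1, an inhibitor of the JAK kinases, at 0.416. Stat3 stood at 0.758. Jak1 at 0.941 was close to all genes, Jak2 stood at 0.70 and Socs3 at 0.638. Irf1 was highest in the Prss23 cluster in both libraries, at 868 and 916 CPM, as was the summed GTPase level.

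Among other targets of interferon gamma, 2 of 8 genes with both medians were at least 2-fold lower over the blood classes. Over all genes that share was 1.65%. Cxcl10, a chemokine that draws T cells, had a blood median of 0.254 and was highest at 5734 CPM in macrophage-like cells of library 1, which held 660.4 CPM in library 2. The other was Cd274 at 0.335. Tap1, a peptide transporter of antigen presentation, stood at 0.504, just short of 2-fold. The immunoproteasome genes Psmb8 and Psmb9 stood at 0.908 and 0.798. The median of the blood medians of this list was 0.680.

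Most genes of the type I interferon list, which also held the receptor genes, were lower in blood cells of library 2. Of 17 genes with both medians, 14 were at least 2-fold lower over the blood classes and 3 over the tissue classes. All genes gave 1.65% and 1.36%. Rsad2, an antiviral enzyme, had a blood median of 0.214, Isg15, a ubiquitin-like protein, 0.199, Ifit1, an RNA-binding antiviral protein, 0.118, and Rtp4 0.302. In macrophage-like cells Rsad2 went from 7106 CPM in library 1 to 629 CPM in library 2, and Isg15 from 2484 to 305 CPM. Over the tissue classes Rsad2 stood at 0.437 and Isg15 at 0.489, so both passed 2-fold in tissue, which no GTPase gene did. The receptor genes Ifnar1 and Ifnar2 stood at 0.994 and 0.871 in blood, like Ifngr1 and Ifngr2.

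Partners of the GTPases in inflammasomes and autophagy lay near all genes. None of the 9 genes with both medians was at least 2-fold lower, and their blood medians had a median of 0.918. Sqstm1, an autophagy receptor, stood at 0.918, and the autophagy genes Map1lc3b and Gabarapl2 at 1.03 and 1.05. Casp4, the caspase that senses bacterial lipopolysaccharide, had the lowest value of these 9 at 0.553.

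**Figure D5:**
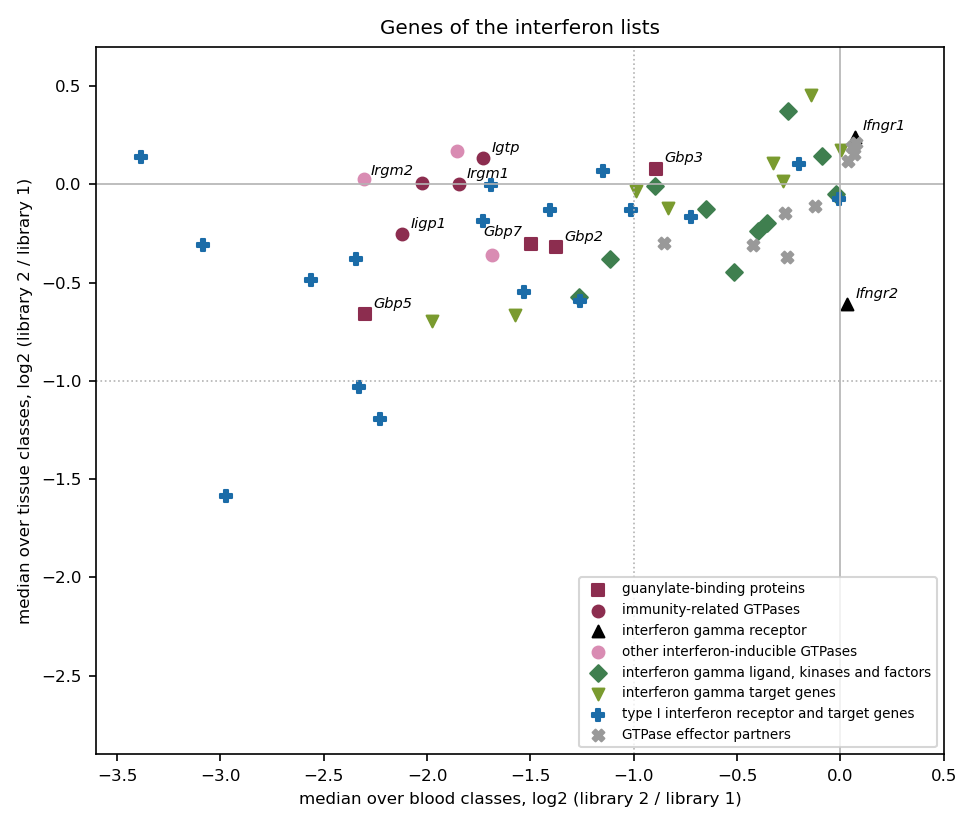
Median ratio of library 2 to library 1 over the blood classes (horizontal) and the tissue classes (vertical), on log2 axes, for the genes of 8 lists with both medians. Dotted lines mark 2-fold. All GTPase genes except Gbp3, and 14 of the 17 genes of the type I interferon list, lie left of the vertical dotted line. No GTPase gene lies below the horizontal one, while the receptor chains and the effector partners lie right of the vertical one.

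The spread of GTPase transcripts over the cells differed between classes. Over the classes with at least 20 UMIs after thinning, the variance of the summed count over cells was 1.28 to 5.495 times its mean in library 1 (24 classes, median 2.99) and 1.10 to 3.12 times in library 2 (23 classes, median 2.20), where 1 is the value of Poisson counts. The lowest value was that of NK cell-like cells of library 2. The 10% of T cell-like cells with most GTPase UMIs held 36.3% of 648 UMIs in library 1 and 51.6% of 124 UMIs in library 2. Over all T cell-like cells the variance was 3.32 and 1.83 times the mean. In fibroblast or periodontal ligament-like cells the top 10% held 47.4% and 43.3%, with variances of 4.01 and 3.06 times the mean. This ratio also grows with the mean, so the libraries are not compared by it.

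Some single cells carried UMIs of several GTPase genes. Whether the genes met in a cell more often than their levels imply was not tested. A UMI of at least 3 of the 8 genes was found in 27.7% of thinned T cell-like cells of library 1 (exact interval 22.5 to 33.4) and 3.86% of library 2 (1.68 to 7.47). Monocyte-like cells had 19.5% (16.0 to 23.4) and 1.87% (0.936 to 3.32), and macrophage-like cells 17.5% (11.3 to 25.2) and none of 184, which allows up to 1.63%. In the Prss23 cluster the shares were 25.9% (18.1 to 35.0) and 32.6% (25.7 to 40.1), and in endothelial-like cells 13.01% (9.38 to 17.4) and 21.6% (18.3 to 25.1). Library 1 was higher in 15 of 16 blood classes and in 5 of 9 tissue classes.

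The genes most alike in pattern were sought over the 25 classes by the Pearson correlation of log2(CPM + 10), taking the lower value of the 2 libraries. For the summed GTPases these were Parp9 (0.83 and 0.86), Dtx3l (0.82 and 0.82) and Stat2 (0.79 and 0.77). Parp9 and Dtx3l were also the closest to Irgm1 and Irgm2, with Mx2 next, and to Igtp together with Mitd1. Fscn1 and Socs3 were among the 3 closest to Gbp2. Gbp3 was closest to Ddx24, Dtx3l and Srsf7, Gbp5 to Ogfr, Tap1 and Nmi, and Gbp7 to Mitd1, Icam1 and Tor1aip2. Iigp1 was closest to Slc30a4, Tceal9 and Epha2. For the receptor chains they were Sult2b1, Cd27 and Gm41331 with Ifngr1, and Vps26a, Spi1 and Csf2ra with Ifngr2. Among the 10 genes, Irgm1 and Irgm2 correlated at 0.76 and 0.87 and Gbp3 and Gbp7 at 0.84 and 0.81. Ifngr1 and Ifngr2 correlated at -0.38 and -0.06. These values describe classes that share 2 libraries and their free RNA.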

How the data were processed

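The authors deposited raw counts of UMIs per gene and barcode for both libraries, which came from a microwell kit. Per the labels' protocols, bone was digested for 60 min and red cells were lysed. Aligner, counting program and annotation: not given in the sources used here. FastQC 0.11.9 and the builds GRCh38 and mm10 appear, without a role, in the submitters' processing notes. The 42693 features without a symbol, with 0.602% and 0.431% of UMIs, were left out of totals.

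Of the unfiltered barcodes, cells had at least 799 and 985 UMIs (the inflection of the barcode rank curve), 200 genes and at most 20% mitochondrial UMIs, which left 9907 and 12339. Scrublet's threshold marked 0 and 2 doublets, too few for a working call, so the 5% with the highest scores were removed, and doublets may remain. Named genes had 77572847 and 116775367 UMIs, of which 64.5% and 67.3% lay in cells.

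Cells were clustered together with scanpy 1.11.5 (2000 variable genes without the genes of the lists, 30 components, 15 neighbours, Leiden resolution 1.0). A cluster was named if at least 3 markers and 50% of a list were raised 3-fold and, among its 10 leading genes, markers of another type were not more numerous. UMIs were summed per class and library. Intervals are exact Poisson for CPM and exact Clopper-Pearson for shares, and those of ratios are normal on the log scale. For expected shares of thinned cells with a UMI, the interval is that of the expected number of cells, rounded to a whole cell. Levels under 0.5 UMIs were set to it before ratios. A median over blood classes needed at least 8 classes and over tissue classes at least 4. The scripts were tested on simulated data.

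The named genes were the 10 members, Ifng, Jak1, Jak2 and Irf1, the 4 genes of each list with most UMIs, and the 3 most alike genes. Some genes that the rule names are not reported here. Socs1, Cd274, Ifnar1, Ifnar2, Gbp6, Tgtp1, Gbp8, Gbp9 and Gvin1 were named after their values were seen. The genes and lists were chosen with earlier results of these data known. The libraries carry no group label, so no comparison between groups and no test was made. Near-identical paralogs such as Tgtp1 and Tgtp2 may split reads between them, which makes both counts uncertain.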

Additional observations from a re-analysis of the deposited data

How the results depend on the processing

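Values were recomputed under these alternatives: at least 2000 UMIs per cell, at most 10% mitochondrial UMIs, no doublets removed, Leiden resolutions 0.5 and 2.0, list genes kept among the variable genes, equal weight for each cell, free RNA subtracted, and classes of at least 30 cells. The number of the 10 genes with the same highest class was 1, and 2 at the 10% mitochondrial limit, with equal weight and with free RNA subtracted. The number at least 2-fold above every other class was 0, and 1 at resolution 0.5. The lead of the Prss23 cluster for the summed GTPases, 0.20 on the log2 scale in the lower library, turned to -0.17 at 2000 UMIs where the cause was not tested, and to -0.21 with free RNA subtracted, where macrophage-like cells with a void estimate came first. Of the other such leads, of the sum and of single genes, 66 moved by less than their counting error and 11 moved by more. Where a class was not found again under another clustering, its values could not be given. The alternatives for the ratio of the libraries were added after the values had been seen. The sum was lower in library 2 in every blood class under each of them, and at least 2-fold in 13 of 16 at 2000 UMIs, 14 of 16 without doublet removal, 13 of 13 at resolution 0.5, and in all but at most 1 class otherwise. The tissue classes past 2-fold numbered 0 with equal weight, 2 with free RNA subtracted (1 of 8 without void estimates) and 0 with classes of at least 30 cells, the last because the Igfbp6 cluster is not ranked. The free RNA estimate rests on haemoglobin genes and is void where it passed 50% or left nothing, as in macrophage-like cells with 100% and 79.3%. Without the void classes 14 of 14 blood classes passed 2-fold. No paired analysis was possible because the labels give neither groups nor replicate numbers. With 1 pool per library, the intervals cover counting error and no spread between mice.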
